A study of Homo sapiens with 12 samples.

Results

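The serine/arginine-rich splicing factors (SR proteins) were followed in PC3 cells, a human prostate cancer cell line, through the genes SRSF1, SRSF2, SRSF3, SRSF4, SRSF5, SRSF6, SRSF7, SRSF9, SRSF10 and SRSF11. These 10 genes, of 43613 genes with a linear transcript in the table, were chosen by name. Their coding and noncoding RefSeq transcripts (accessions that begin NM_ and NR_) were also read one by one, 27 NM and 6 NR transcripts of 177700 linear transcripts. All cells were labelled wild type and fall into 4 groups of 3 libraries: PBS (labelled BLANK), AgNPs, DOC, and AgNPs+DOC together (labelled COM). Doses, exposure times and the meaning of the abbreviations are not given in the sources used here, and nothing says whether the 3 libraries of a group came from separate cultures, so the p-values measure the spread between these libraries, which may be technical. Libraries held 10996446 to 22769479 estimated counts on linear transcripts; the AgNPs and COM libraries were the shallowest.

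SR proteins bind exonic sequences of pre-mRNA through their RNA recognition motifs and help the spliceosome choose splice sites, while their arginine/serine domain is phosphorylated by SRPK and CLK kinases. Many SR genes hold an ultraconserved poison exon: when it is included, a premature stop codon is read and the transcript is normally removed by nonsense-mediated decay. SR proteins, SRSF3 among them, are known to promote inclusion of such exons in their own transcripts and in those of other family members, which keeps their levels in check.

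The transcripts on which the results turn are the noncoding forms of SRSF3 and SRSF6, shown here at the place where each leaves the coding form. SRSF3 lies on chr6:36594362-36605600 (GRCh38, + strand). NR_036610.1 carries 1 exon that the coding transcript NM_003017.4 lacks, chr6:36599821-36600276, 456 bases long, inserted after the exon that ends at base 36598983. The lines give the last 30 bases of that shared exon, the start of the inserted exon up to its in-frame stop codon (capitals), and the exon that follows in the coding form.
SRSF3 shared exon, chr6:36598954-36598983: tcgtaggaggagtcctccacctcgtcgcag
SRSF3 inserted exon to its stop, chr6:36599821-36599854: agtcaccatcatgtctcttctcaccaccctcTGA
SRSF3 next coding exon, chr6:36601152-36601190: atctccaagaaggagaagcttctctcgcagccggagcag
Read into the inserted exon, the SRSF3 frame met a stop after 31 bases, leaving 124 codons in place of 164. SRSF6 lies on chr20:43457896-43464243 (GRCh38, + strand). Its NR_034009.1 carries an inserted exon of 268 bases, chr20:43459153-43459420, absent from NM_006275.5.
SRSF6 shared exon, chr20:43458480-43458509: atcgcgacggctacagctacggaagccgca
SRSF6 inserted exon to its stop, chr20:43459153-43459304: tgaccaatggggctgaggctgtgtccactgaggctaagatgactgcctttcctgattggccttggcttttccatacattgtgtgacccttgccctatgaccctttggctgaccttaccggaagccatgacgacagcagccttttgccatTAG
The SRSF6 frame ran through 149 bases of the insert to its stop, giving 135 codons in place of 344. The stop lies 548 bases before the last exon junction in the SRSF3 form and 534 bases before it in the SRSF6 form. GENCODE 29 types both, and NR_036608.1 of SRSF2, as nonsense-mediated decay transcripts. The sequences and exons are those of the GENCODE 29 transcripts that match these RefSeq versions.

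**Figure D1:**
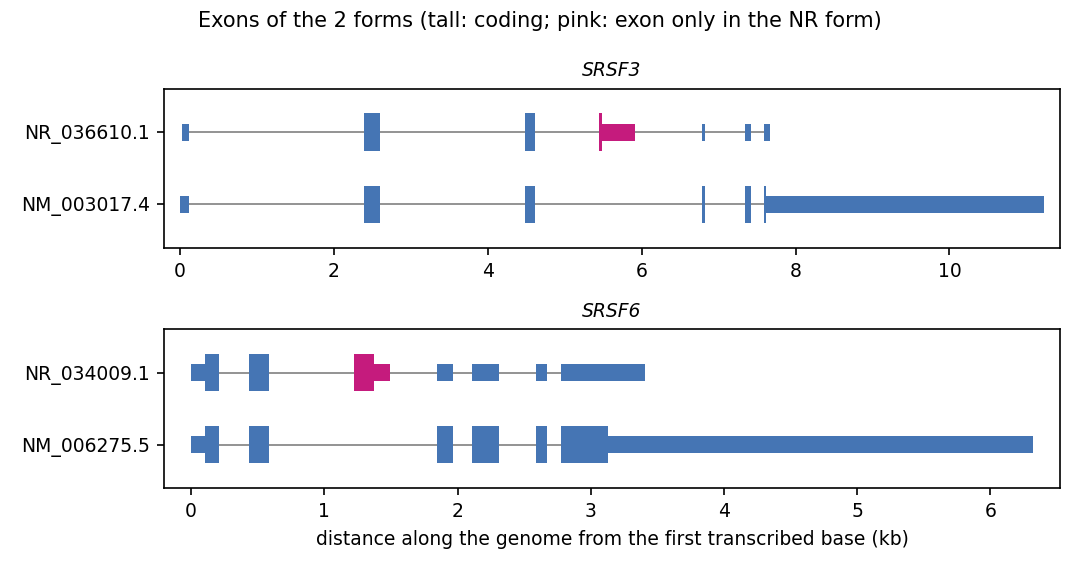
Exons of the noncoding (NR) and coding (NM) forms of SRSF3 and SRSF6, drawn to scale by distance in kb from the first transcribed base; tall boxes are coding, short boxes are not, and pink marks the exon found only in the NR form. The inserted exon is 456 bases in SRSF3 and 268 bases in SRSF6, and in both the coding part ends inside it.

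The SRSF3 poison-exon form rose in COM while the SRSF3 coding form fell. NR_036610.1 stood at 9.76, 9.49 and 8.62 FPKM (fragments per kilobase of transcript, scaled to library size) in BLANK, at 13.3, 11.1 and 13.2 FPKM in AgNPs, at 11.3, 14.6 and 12.7 FPKM in DOC, and at 21.3, 19.1 and 22.1 FPKM in COM. The 3 COM libraries lay above all others, and every AgNPs and DOC library lay above every BLANK library. The rise from BLANK to COM was 1.11 ± 0.11 (SE) on the log2 scale, or 2.16-fold, with an adjusted p of 0.000189 by edgeR's quasi-likelihood test with Benjamini-Hochberg adjustment. Of 73953 linear transcripts tested, 2.54% were called higher in that comparison. COM also exceeded AgNPs, by 0.71 ± 0.11 (adjusted p = 0.0152 by edgeR; 0.354% of transcripts higher), and exceeded DOC by 0.68 ± 0.11 (adjusted p = 0.00631 by edgeR; 1.57% higher). With either agent alone the values were 0.40 ± 0.11 for AgNPs (adjusted p = 0.128 by edgeR) and 0.43 ± 0.11 for DOC (adjusted p = 0.212 by edgeR), neither of which passed the threshold of 0.05. DESeq2 called both, at 0.42 for AgNPs (adjusted p = 0.00497) and 0.43 for DOC (adjusted p = 0.00525). It called 3951 and 2052 transcripts in these 2 comparisons, beside 1549 and 148 by edgeR.

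The coding transcript of SRSF3, which encodes the smallest classical SR protein, moved the other way in the same libraries. NM_003017.4 stood at 86.0, 86.5 and 84.0 FPKM in BLANK, at 74.8, 77.8 and 76.2 FPKM in AgNPs, at 74.5, 75.9 and 78.7 FPKM in DOC, and at 65.9, 69.5 and 68.6 FPKM in COM. No BLANK library overlapped a treated one, and no COM library overlapped a library of either agent alone. The fall was -0.38 ± 0.03 in COM (adjusted p = 5.69e-05 by edgeR), -0.20 ± 0.03 in AgNPs (adjusted p = 0.00823) and -0.20 ± 0.03 in DOC (adjusted p = 0.0461). COM was lower than AgNPs by -0.18 ± 0.03 (adjusted p = 0.0282 by edgeR) and lower than DOC by -0.18 ± 0.03 (adjusted p = 0.00981). The transcripts called lower made up 4.28% of those tested in COM against BLANK, 1.23% in AgNPs against BLANK, 0.142% in DOC against BLANK, 0.818% in COM against AgNPs and 2.15% in COM against DOC. The DOC call was lost in 17 of 20 alternative analyses, the COM against AgNPs calls were lost in 10 of 20 for the coding form and in 6 of 20 for the poison-exon form, and both calls of COM against BLANK held in all 20. Both calls of COM against DOC were lost when only the groups compared were fitted (adjusted p = 0.0879 for the coding form and 0.053 for the poison-exon form by edgeR).

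**Figure D2:**
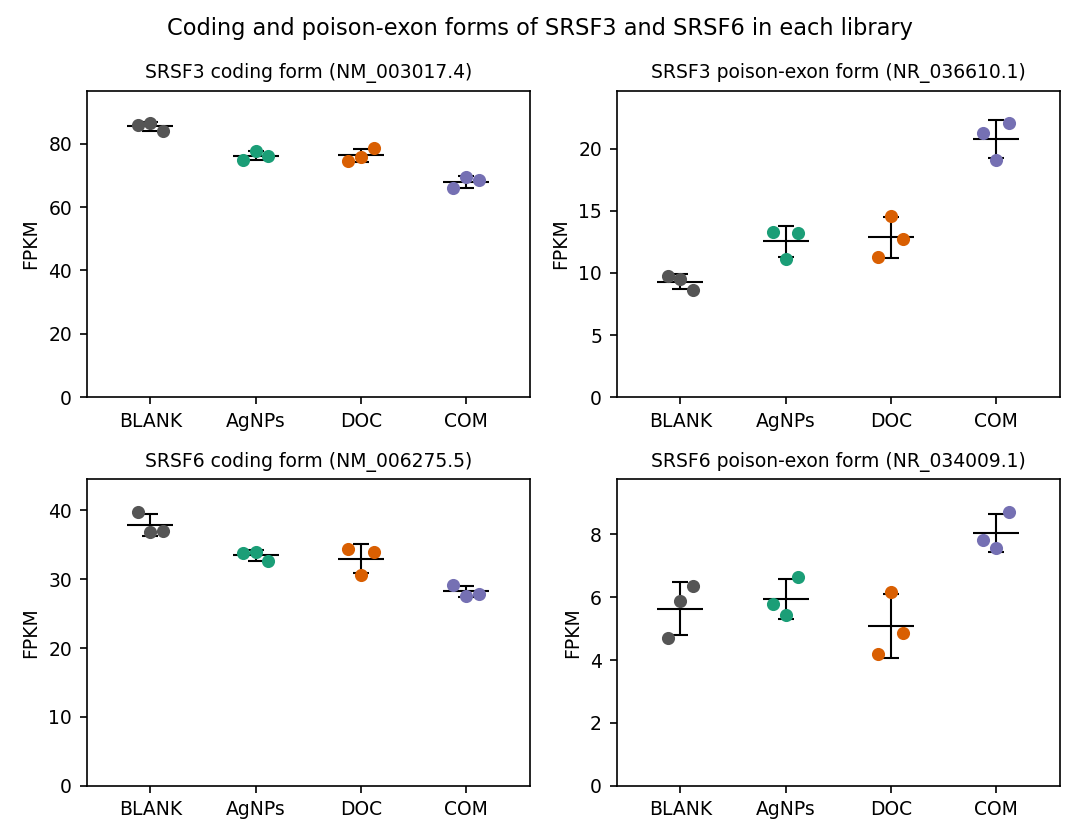
FPKM of the coding form (left) and the poison-exon form (right) of SRSF3 (top) and SRSF6 (bottom) in each library; points are libraries, bars the mean ± SD of 3. In COM the SRSF3 poison-exon form sits between 19.1 and 22.1 FPKM, above every other library, and the coding form between 65.9 and 69.5 FPKM, below every other library.

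As a share of the 2 SRSF3 transcripts, the only linear ones listed for the gene, the poison-exon form held 9.80 ± 0.45% of the FPKM in BLANK, 14.1 ± 1.43% in AgNPs, 14.4 ± 1.5% in DOC and 23.4 ± 1.62% in COM (SD, n = 3). Counted in reads the shares were 11.1 ± 0.50%, 15.9 ± 1.58%, 16.2 ± 1.66% and 26 ± 1.74%. The groups of single agents overlapped each other, and COM stood apart from both. Tested as usage, the change of a transcript relative to its own gene, NR_036610.1 rose by 0.85 in COM against BLANK (adjusted p = 0.00232, edgeR's diffSpliceDGE). Only 0.329% of 67113 transcripts passed that test, in either direction. The usage call was lost without BLANK replicate 3 (adjusted p = 0.0548) and with no filter on low counts (adjusted p = 0.294). The effect of DOC in the presence of AgNPs minus its effect without them was 0.28 for the poison-exon form (95% interval -0.01 to 0.58; adjusted p = 1 by edgeR) and 0.02 for the coding form (-0.07 to 0.11; adjusted p = 1), so no departure from an additive log2 effect was detected; 0.0284% of transcripts passed.

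Depth moved with the groups: COM libraries held 10996446 to 11069928 counts and BLANK libraries 22573481 to 22769479. With every library thinned to the shallowest, an alternative added after seeing the data, the SRSF3 poison-exon form was still higher in COM than in BLANK by 1.15 (adjusted p = 0.000276 by edgeR) and the coding form lower by -0.37 (adjusted p = 6.2e-05). The 2 SRSF3 transcripts share 639 bases, so the division of reads between them is the authors' statistical estimate. It rests on the 456 bases of the inserted exon and on 3583 bases found only in the coding form. GENCODE 29 also lists 2 retained-intron transcripts over the inserted exon, which are not separate entries for SRSF3 in the table; their part in the NR_036610.1 value was not tested.

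SRSF6, an SR protein with paired RNA recognition motifs, fell in its coding form in COM, while its poison-exon form did not pass the test. Its coding form NM_006275.5 stood at 39.8, 36.9 and 37.0 FPKM in BLANK, at 33.8, 34 and 32.6 FPKM in AgNPs, at 34.4, 30.6 and 34 FPKM in DOC, and at 29.2, 27.6 and 27.8 FPKM in COM. COM lay below every other library. The fall in COM against BLANK was -0.48 ± 0.05 (adjusted p = 0.000399 by edgeR), which held in all 20 alternatives, and against DOC -0.24 ± 0.05 (adjusted p = 0.0351), which was lost in 11 of 20. Against AgNPs the difference was -0.26 ± 0.05 (adjusted p = 0.0509 by edgeR). It passed under DESeq2 (adjusted p = 0.00104), and by edgeR with no filter on low counts or without DOC replicate 2. Every AgNPs and DOC library lay below every BLANK library. Neither agent alone passed against BLANK in the main edgeR fit. DESeq2 called both lower, by -0.19 for AgNPs (adjusted p = 0.0149) and -0.24 for DOC (adjusted p = 0.00139).

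The SRSF6 poison-exon form NR_034009.1 stood at 4.70, 5.87 and 6.35 FPKM in BLANK, at 5.77, 5.42 and 6.64 FPKM in AgNPs, at 4.19, 6.18 and 4.86 FPKM in DOC, and at 7.82, 7.58 and 8.72 FPKM in COM. All 3 COM libraries were the highest of the 12, while BLANK, AgNPs and DOC overlapped. The difference of COM from BLANK, 0.46 ± 0.16, did not pass (95% interval 0.15 to 0.77; adjusted p = 0.141 by edgeR), and DESeq2 gave an adjusted p of 0.0245. Against DOC it was 0.65 ± 0.16 (adjusted p = 0.0588 by edgeR, 0.00101 by DESeq2). As a share of the SRSF6 NM and NR FPKM this form held 13.0 ± 2.15% in BLANK, 15.1 ± 1.65% in AgNPs, 13.4 ± 3.08% in DOC and 22.2 ± 1.49% in COM (SD, n = 3). Its usage against BLANK in COM was 0.47 (adjusted p = 0.792, edgeR's diffSpliceDGE). A predicted noncoding transcript of SRSF6 that is neither NM nor NR takes part of the gene's reads; over all linear SRSF6 transcripts the NR form held 11 ± 1.51% of the FPKM in BLANK and 17.8 ± 1.26% in COM.

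The third noncoding form with enough reads to test, NR_036608.1 of SRSF2, did not show this order. It keeps the stop codon of the coding form NM_001195427.1 and carries after it an exon of 104 bases that the coding form lacks, at chr17:76735772-76735875 (GRCh38, - strand). It also lacks 674 bases of the coding form. It held 3.71 ± 0.88% of the SRSF2 NM and NR FPKM in BLANK, 3.71 ± 1.0% in AgNPs, 2.63 ± 0.59% in DOC and 2.76 ± 1.14% in COM. The COM and BLANK libraries overlapped, and the log2 difference of -0.66 ± 0.33 did not pass (adjusted p = 0.356 by edgeR). Its 95% interval of -1.31 to -0.01 is a normal approximation from the SE, narrower than the test's own. The other 3 noncoding forms were too sparse to test. NR_034041.1 of SRSF1 was listed at 0 in 11 of 12 libraries and at 67.8 counts in AgNPs replicate 2, NR_034035.2 of SRSF10 was at 0 in 11 libraries, and NR_146810.1 of SRSF11 was at 0 in 10. A zero here can be a failed split of shared reads.

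**Figure D3:**
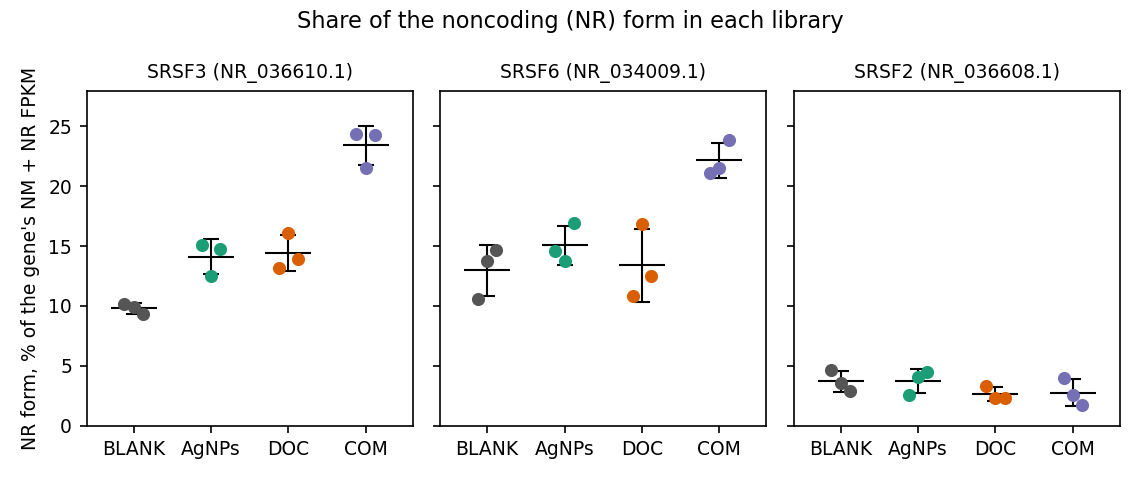
Share of the NR form in the FPKM of each gene's NM and NR transcripts, per library, for SRSF3, SRSF6 and SRSF2; points are libraries, bars the mean ± SD of 3. In COM the share is 21.6 to 24.4% for SRSF3 and 21.1 to 23.9% for SRSF6, above all other libraries, and 1.71 to 3.97% for SRSF2, where the other libraries run from 2.28 to 4.67% and overlap with COM.

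Of 511 NR transcripts of other genes that GENCODE 29 types as nonsense-mediated decay, 4 were called higher and 4 lower in COM against BLANK. Over all transcripts 2.54% were called higher and 4.28% lower. The median log2 difference of the 511 was 0.10. In that comparison the medians over all tested NR and NM transcripts were 0.05 and -0.12. A difference at or above that of NR_036610.1 was seen in 15.9% of the 511, in 12.9% of all tested NR transcripts and in 9.77% of all tested NM transcripts. None of the 498 with a usage test was called in COM against BLANK, where 0.329% of all transcripts were called, so few calls could be looked for in a set of this size.

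At the level of whole genes, with all linear transcripts of a gene summed, SR genes made up 899 ± 12.7 FPKM in BLANK, 826 ± 6.11 in AgNPs, 858 ± 6.43 in DOC and 777 ± 6.01 in COM (SD, n = 3). The 4 groups did not overlap in this sum. In BLANK the order of levels per length ran from SRSF2 (198 ± 5.12 FPKM), also known as SC35 and a marker of nuclear speckles, through SRSF5 (135 ± 3.10), SRSF9 (103 ± 5.77), SRSF3 (94.8 ± 1.87), SRSF7 (90.3 ± 1.96) and SRSF1 (87.3 ± 0.68), to SRSF4 (55.2 ± 1.43), SRSF11 (53.0 ± 1.38), SRSF6 (51.3 ± 0.84) and SRSF10 (32.2 ± 0.75). Neighbours in this order did not overlap between the BLANK libraries, apart from SRSF4 and SRSF11.

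**Figure D4:**
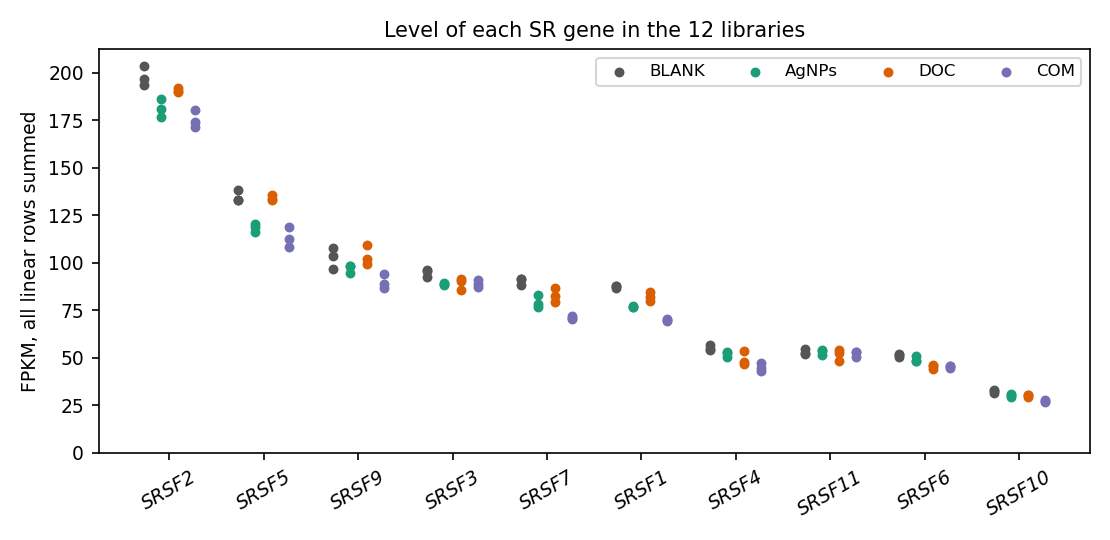
FPKM of each SR gene, all linear transcripts summed, in the 12 libraries, ordered by the BLANK mean; each point is a library, coloured by group. SRSF1 falls from 86.6 to 87.9 FPKM in BLANK to 69.1 to 70.2 FPKM in COM, while SRSF11 overlaps in all groups.

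In COM against BLANK, 9 of the 10 SR genes fell and none rose, with a median log2 difference of -0.21, beside 24.5% of 19986 genes called lower and a median of 0.03 over all genes. SRSF1, the prototype SR protein and a known proto-oncogene, fell the most. It stood at 87.9, 87.5 and 86.6 FPKM in BLANK, at 76.8, 77.3 and 76.5 FPKM in AgNPs, at 79.7, 82.0 and 84.6 FPKM in DOC and at 70.2, 70.0 and 69.1 FPKM in COM. Its groups did not overlap, and its COM difference in summed counts was -0.34 ± 0.03 (adjusted p = 6.26e-13 by edgeR). SRSF7, an export adaptor for mRNA, fell by -0.31 ± 0.04, SRSF4 by -0.31 ± 0.04 and SRSF10, a factor linked to splicing control in stress, by -0.28 ± 0.03 (adjusted p between 6.09e-08 and 7.7e-09 by edgeR). SRSF5, SRSF2, SRSF9 and SRSF6 fell by -0.21 ± 0.03, -0.21 ± 0.03, -0.20 ± 0.05 and -0.17 ± 0.03.

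The SRSF3 gene sum differed least of those called, by -0.07 ± 0.03 (adjusted p = 0.0388 by edgeR), and that call was lost in 9 of 21 alternatives, among them leaving out BLANK replicate 1 or 2, any 1 AgNPs library, or COM replicate 1 or 2. SRSF3 thus read 94.8 ± 1.87 FPKM in BLANK and 88.8 ± 1.75 in COM as a gene, although its coding transcript alone went from 85.5 ± 1.31 to 68.0 ± 1.85 FPKM. SRSF11 did not pass, at -0.06 ± 0.04 (95% interval -0.14 to 0.01; adjusted p = 0.17). The other 8 calls held in all 21 alternatives. In bulk libraries, fewer cells with a transcript and less of it per cell cannot be told apart.

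With AgNPs alone, 6 SR genes fell and none rose (16% of all genes were called lower): SRSF1 by -0.19 ± 0.03, SRSF5 by -0.17 ± 0.03, SRSF7 by -0.16 ± 0.04, SRSF2 by -0.14 ± 0.03, SRSF10 by -0.11 ± 0.03 and SRSF3 by -0.10 ± 0.03. Leaving out AgNPs replicate 2 left 4 of these calls, without SRSF3 and SRSF10. The SRSF3 call was also lost without AgNPs replicate 1 or 3. Both calls were lost without BLANK replicate 1 and with thinning, and that of SRSF10 with limma on log2(FPKM + 1). With DOC alone, 7 fell and none rose (9.81% of all genes were called lower): SRSF6 by -0.21 ± 0.03, SRSF4 by -0.20 ± 0.04, SRSF7 by -0.14 ± 0.03, SRSF10 by -0.14 ± 0.03, SRSF1 by -0.11 ± 0.03, SRSF2 by -0.10 ± 0.03 and SRSF3 by -0.10 ± 0.03. On log2(FPKM + 1) with limma, 1 of the 7 DOC calls remained. The SRSF3 call in DOC was also lost without BLANK replicate 1 or 2, without DOC replicate 1, with only the groups compared and with thinning. With RefSeq transcripts alone the DOC calls of SRSF3 and SRSF4 were lost. The 2 comparisons share their BLANK libraries.

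Some members passed with 1 agent alone and not with the other. SRSF5 stood at 116, 119 and 120 FPKM in AgNPs but at 136, 133 and 133 FPKM in DOC, beside 133, 138 and 133 in BLANK; its DOC difference was 0.01 (95% interval -0.05 to 0.07; adjusted p = 0.884 by edgeR). SRSF6 stood at 46.0, 44.0 and 45.4 FPKM in DOC and at 48.3, 48.3 and 50.9 FPKM in AgNPs, beside 50.4, 52 and 51.6 in BLANK; its AgNPs difference was -0.06 (-0.12 to 0.00; adjusted p = 0.147). AgNPs and DOC were not tested against each other.

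**Figure D5:**
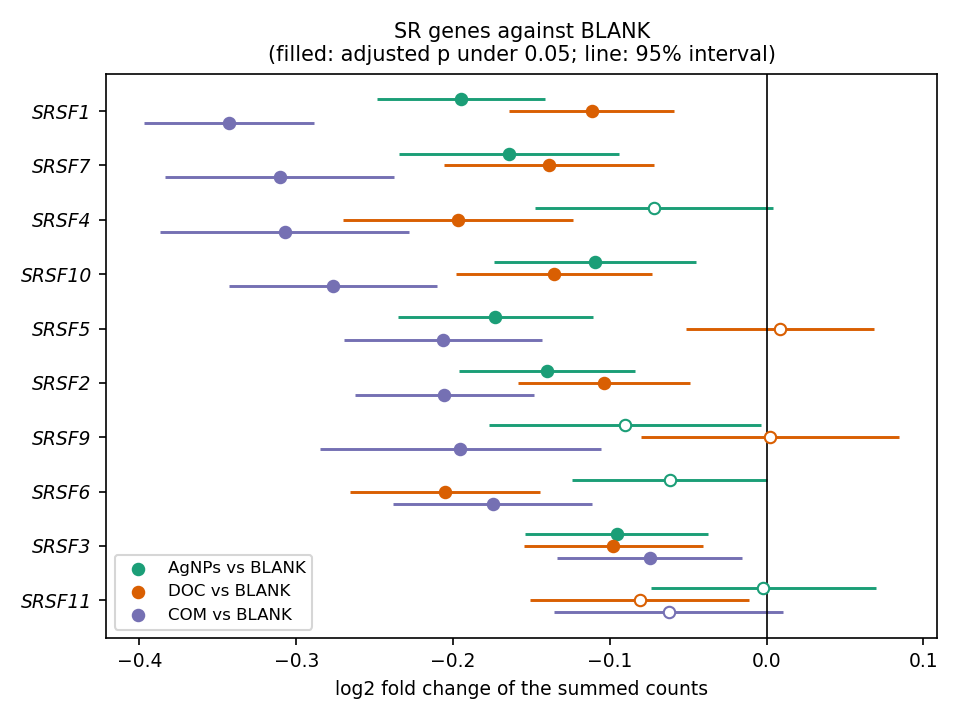
Log2 fold change of the summed counts of each SR gene against BLANK, with 95% intervals from the SE (normal approximation). Filled points passed an adjusted p of 0.05. The COM values run from -0.34 for SRSF1 to -0.06 for SRSF11, all below 0.

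Against each agent alone, COM was lower for 5 SR genes relative to AgNPs (12% of all genes lower) and for 7 relative to DOC (18.5% lower), with none higher. SRSF1, SRSF4, SRSF7 and SRSF10 were lower in both; the 2 comparisons share the COM libraries. SRSF6 was lower relative to AgNPs (-0.11 ± 0.03, adjusted p = 0.0133 by edgeR), a call lost without AgNPs replicate 3 (with RefSeq transcripts alone 3 of the 5 calls were left, without SRSF4 and SRSF6, at adjusted p = 0.118 and 0.0544), and stood at 0.03 relative to DOC (-0.03 to 0.10). SRSF2, SRSF5 and SRSF9 were lower relative to DOC, by -0.10 ± 0.03, -0.22 ± 0.03 and -0.20 ± 0.05. The SRSF2 call was lost without COM replicate 1 (adjusted p = 0.0506), and that of SRSF4 relative to DOC (-0.11 ± 0.04, adjusted p = 0.0347) was lost in 9 of 21 alternatives, among them leaving out BLANK replicate 2, DOC replicate 1, or COM replicate 1 or 3. No SR gene passed the test of non-additivity, in which 1.11% of all genes were called; at an unadjusted p under 0.05 edgeR's quasi-likelihood test gave SRSF3 alone (0.12, 95% interval 0.04 to 0.20; adjusted p = 0.24). DESeq2 also called no SR gene there.

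Among single coding transcripts, 6 of the 26 tested fell in COM against BLANK and none rose, beside 4.28% of all transcripts called lower. Besides SRSF3 and SRSF6 these were 1 transcript each of SRSF1, SRSF5, SRSF9 and SRSF10. NM_006924.4 of SRSF1 went from 65.7 ± 0.73 FPKM in BLANK to 51.8 ± 2.40 in COM (-0.40 ± 0.03, adjusted p = 8.05e-05 by edgeR), with no overlap. NM_001320214.1 of SRSF5 stood at 55.8, 64.8 and 66.2 FPKM in BLANK and at 52.4, 44.0 and 42.3 FPKM in COM (-0.48 ± 0.10, adjusted p = 0.0172 by edgeR). The call was lost without BLANK replicate 2 or 3 or COM replicate 2 or 3, and with only the groups compared (adjusted p = 0.0753 by edgeR). NM_003769.2 of SRSF9, its only transcript in the table, went from 103 ± 5.77 to 89.9 ± 3.88 FPKM (-0.24 ± 0.05, adjusted p = 0.0258 by edgeR), lost in 9 of 20 alternatives. Its counts are those of the SRSF9 gene sum, so both calls rest on the same values, fitted here among transcripts and there among genes. NM_006625.5 of SRSF10 went from 5.53 ± 0.50 to 4.46 ± 0.16 FPKM (-0.37 ± 0.09, adjusted p = 0.0425), lost in 15 of 20.

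NM and NR transcripts do not carry all reads of each gene. They held all counts of SRSF3 and SRSF9, 92.7 ± 0.18% of those of SRSF1, 83.0 ± 3.40% of SRSF6, 67.4 ± 1.25% of SRSF5, 62.5 ± 4.57% of SRSF2, 42.7 ± 8.89% of SRSF4, 33.9 ± 0.67% of SRSF10, 28.6 ± 0.79% of SRSF7 and 19.4 ± 1.70% of SRSF11 in BLANK. For SRSF5 this share was 64.0 ± 3.14% in AgNPs, 60.5 ± 0.68% in DOC and 55.6 ± 1.78% in COM, with the COM libraries below all others. Of the 68 other linear transcripts of the 10 genes 46 could be tested, and 2 fell in COM, a share close to the 4.28% of all transcripts: XM_005264484.2 of SRSF7, from 39.3 ± 1.97 to 27.3 ± 4.22 FPKM (-0.57 ± 0.12, adjusted p = 0.0163 by edgeR), and XM_017000100.2 of SRSF10, from 17.1 ± 0.16 to 13.8 ± 0.69 FPKM (-0.36 ± 0.04, adjusted p = 0.000365). These 2 are predicted transcripts named after their values were seen.

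Neighbours and copies can share reads with these genes. SRSF2 overlaps MFSD11 and MIR636, SRSF4 overlaps MECR, SRSF9 overlaps GATC, and SRSF1 and SRSF5 each overlap a gene known by a LOC number; the strand handling of the library is not given in the sources used here. RefSeq names 5 pseudogenes of SRSF3, 2 each of SRSF6 and SRSF10, and 1 each of SRSF1, SRSF2, SRSF9 and SRSF11. How the reads of such copies were divided was not tested.

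The machinery around the SR proteins moved in both directions in COM against BLANK. Of the 8 tested kinase and import genes 4 rose and 2 fell, where 25.1% of all genes were called higher and 24.5% lower. CLK1, a kinase that phosphorylates SR proteins in the nucleus, stood at 25.3, 25.5 and 24.1 CPM (counts scaled to library size) in BLANK and at 38.4, 37.7 and 42.4 CPM in COM, a rise of 0.66 ± 0.06 (adjusted p = 2.44e-11 by edgeR). CLK1 also rose in AgNPs (0.21 ± 0.06) and in DOC (0.49 ± 0.06). CLK3 rose by 0.31 ± 0.08 and DYRK1A by 0.22 ± 0.04 in COM, and SRPK1, a kinase that acts on newly made SR proteins in the cytoplasm, fell by -0.16 ± 0.03. The median of these 8 was 0.15.

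Other splicing regulators mostly fell in COM against BLANK, where 24.5% of all genes were called lower and 25.1% higher. Of 18 genes for hnRNP proteins, which often oppose SR proteins at splice sites, 15 fell and none rose in COM against BLANK (median -0.34), among them HNRNPAB (-0.56 ± 0.03), HNRNPU (-0.51 ± 0.03), HNRNPA3 (-0.47 ± 0.03) and HNRNPF (-0.46 ± 0.03). Of 18 SR-related splicing genes 11 fell and 3 rose (median -0.17). SNRNP70, of the U1 particle, fell by -0.38 ± 0.04, PNN by -0.37 ± 0.04 and U2AF2, which binds the polypyrimidine tract, by -0.35 ± 0.03, while RBM39 rose by 0.26 ± 0.03. SRSF8, a further family member, fell by -0.31 ± 0.05, and SRSF12 was too low to test.

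Of 15 genes of nonsense-mediated decay and the exon junction complex, 6 fell, 2 rose and 7 did not pass in COM against BLANK (median -0.11). Over all genes 24.5% were called lower and 25.1% higher in that comparison. RBM8A, a core subunit of the exon junction complex, fell by -0.37 ± 0.05, UPF3A by -0.27 ± 0.07 and EIF4A3, the complex's RNA anchor, by -0.26 ± 0.05. Among RNAs retained in the nucleus, NEAT1, the scaffold of paraspeckles, rose by 1.32 ± 0.03 and MALAT1, which collects in nuclear speckles, by 0.54 ± 0.02. The 2 RNAs together took 7628 ± 105 CPM in BLANK, 11054 ± 92.3 in AgNPs, 8743 ± 167 in DOC and 13862 ± 238 in COM, with no overlap. Over BLANK, DOC, AgNPs and COM, in that order, these 2 RNAs rose while the summed FPKM of the SR genes fell. The part of this shift in the makeup of the libraries in the SR values was not tested.

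The label was checked against markers of cell types. The 5 epithelial markers, all present, summed to 518 to 600 CPM over the group means, with KRT8, KRT18 and KRT19 above 100 CPM in every library. Of 6 fibroblast markers DCN and LUM stayed under 1 CPM, and the list's sum, 108 ± 6.48 CPM in BLANK and 74.3 ± 3.63 in COM, was mostly COL1A2, at 91.6 and 52.1 CPM in those groups. In COM against BLANK COL1A2 fell by -0.81 ± 0.06 (adjusted p = 6.23e-12 by edgeR), while PDGFRB rose by 1.39 ± 0.35 (adjusted p = 0.00101) and COL3A1 by 0.95 ± 0.39 (adjusted p = 0.0435), both under 2 CPM in the COM and BLANK libraries. Of the 5 epithelial markers 1 rose and 3 fell in that comparison, where 25.1% of all genes were called higher and 24.5% lower. KRT8 rose by 0.22 ± 0.04 (adjusted p = 1.41e-05 by edgeR). EPCAM fell by -0.51 ± 0.11 (adjusted p = 0.000155 by edgeR), KRT18 by -0.16 ± 0.04 (adjusted p = 0.00091) and KRT19 by -0.14 ± 0.05 (adjusted p = 0.0138). The immune marker CD14, under 2 CPM in every library, rose by 1.55 ± 0.45 (adjusted p = 0.00423 by edgeR). The part of these markers in the SR results was not tested. Immune markers, 2 of 4 in the table, summed to at most 1.38 CPM in any library, and endothelial markers to at most 4.81 CPM, with CDH5 and VWF under 1 CPM.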

How the data were processed

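RNA from 12 PC3 libraries was sequenced. Per the submitters' processing notes, HISAT2, Bowtie2 2.2.5, RSEM and GRCh38 were used; versions otherwise and gene models are not given in the sources used here. The deposited table holds, for each transcript and library, an estimated count (expected counts, from the values) and a second value read as FPKM; the authors' group means were not used. The 44096 circular entries were left out. Counts of linear transcripts were rounded, summed by gene (genes) or taken singly (transcripts), filtered with filterByExpr and fitted with edgeR 4.0.16 in R 4.3.3 (TMM, robust quasi-likelihood, 1 fit over all 12 libraries, no block), with Benjamini-Hochberg adjustment over all features and a threshold of 0.05; usage used diffSpliceDGE. CPM use the TMM library sizes. The 95% intervals are a normal approximation from the SE and are narrower than the quasi-likelihood test would give. Some therefore exclude 0 where the test's unadjusted p is over 0.05. Scripts were tested on simulated data. Alternatives changed the normalization, filter, tool (DESeq2 1.42.0, limma 3.58.1 on log2(FPKM + 1)), block, samples, transcripts summed and depth. Named: all members, NM transcripts that lead or hold at least 10% of a member's NM and NR FPKM, NR transcripts that passed the filter, and up to 4 genes per further list with the smallest adjusted p in COM against BLANK. The members and lists were chosen with earlier results of these data known. Libraries of a group differed by more than counting noise (chi-square per degree of freedom 1.45 to 4.73), so none was merged.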

Additional observations from a re-analysis of the deposited data

Results flagged for a closer look

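For 3 of the listed genes outside the SR family, the effect of DOC in the presence of AgNPs differed from its effect without them, by edgeR's test of that difference over all genes. RBM39 and RSRC2 came from the 18 SR-related genes tested and NEAT1 from the 2 RNAs retained in the nucleus, with none from the other lists. Over all 19986 genes 1.11% were called by that test. None of the 10 SR genes passed that test.

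RBM39, an SR-related splicing coactivator, differed by 0.21 on the log2 scale (SE 0.04; adjusted p = 0.00528 by edgeR): it rose by 0.17 in AgNPs, fell by -0.12 in DOC and rose by 0.26 in COM. Its levels were 217, 213 and 213 CPM in BLANK, 239, 244 and 241 CPM in AgNPs, 203, 194 and 193 CPM in DOC, and 258, 253 and 260 CPM in COM, with no overlap between groups.

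RSRC2, an arginine/serine-rich coiled-coil protein named after its values were seen, differed by 0.34 (SE 0.08; adjusted p = 0.0351 by edgeR), and the call was lost in 12 of 20 alternatives. NEAT1 differed by 0.24 (SE 0.04; adjusted p = 0.000476 by edgeR), with a rise of 0.30 for DOC over BLANK and of 0.53 for COM over AgNPs. On log2(FPKM + 1) with limma none of the 3 passed (adjusted p from 0.106 to 0.589).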

How the results depend on the processing

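No SR result called in the main fit or in an alternative reversed its sign under 21 alternatives (20 for single transcripts, 19 for usage). Over all 462 results followed, other listed genes included, 270 values called in neither fit changed sign. Of 34 called SR gene sums 21 kept their call under all alternatives and 13 lost it under some. Of 17 called transcripts 7 kept and 10 lost theirs, and the 1 usage call was lost under some. Replicate numbers did not pair the libraries (18 correlations from -0.111 to 0.0492). Thinning was added after the data were seen. Counts of calls over all features moved by over 1.5 times as follows, and the cause was not tested. The main counts, given for the 3 treatments against BLANK (AgNPs, DOC, COM), then for COM relative to AgNPs, for COM relative to DOC and for non-additivity, were 6181, 3391, 9917, 4369, 7316 and 221 genes, 1549, 148, 5042, 867, 2751 and 21 transcripts, and 50, 79, 221, 173, 160 and 126 transcripts by usage. Limma on log2(FPKM + 1) gave 1090 genes for DOC and 56 for non-additivity. Thinning gave 2155 and 144 genes, 91 and 4 transcripts for the same comparisons, and by usage 44 for DOC and 286 for COM against AgNPs. DESeq2 called 3951, 2052, 9098, 3530, 5690 and 721 transcripts in that order. No filter gave 9 transcripts for non-additivity and by usage 41 for DOC and 136 for COM. The replicate block gave 16 transcripts for DOC, 419 for COM against AgNPs and 0 for non-additivity, and by usage 23, 28, 141, 80, 99 and 46. Fitting only the groups compared gave 898 transcripts for AgNPs, 0 for DOC, 259 for COM against AgNPs and 1267 for COM against DOC, and by usage 154, 145 and 367 against BLANK. RefSeq transcripts alone gave 76 for DOC and 5 for non-additivity, and by usage 17, 16, 114, 101, 83 and 66. Leaving out 1 library gave 5183 to 6635, 2134 to 4027, 8922 to 10261, 3406 to 4938, 6431 to 7326 and 115 to 266 genes, 975 to 1582, 24 to 384, 3450 to 4978, 400 to 1074, 1966 to 2482 and 0 to 32 transcripts, and by usage 18 to 54, 26 to 72, 110 to 230, 127 to 176, 93 to 163 and 81 to 147. DESeq2 was not run for usage, limma only for genes, and fits of the groups compared have no non-additivity test. The 3 noncoding forms that did not pass the filter on low counts were not tested.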
